A study of Zea mays with 6 samples.

Results

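Levels of 9 maize gene models grouped as light-harvesting chlorophyll a/b-binding genes were examined among the 44351 genes that the expression tables list. The genes were taken by identifier. Zm00001d044396, Zm00001d044399, Zm00001d044401 and Zm00001d044402 carry nearby identifiers and are taken as a cluster on chromosome 3. Zm00001d011285, Zm00001d021435, Zm00001d033132, Zm00001d009589 and Zm00001d007267 are taken as dispersed members. The 9 were selected on family membership together with their measured FPKM difference between transgenic and control libraries, so that difference is described here and supports no test. Neither the tables nor the reference list used here (assembly Zm-B73-REFERENCE-NAM-5.0) pairs these identifiers with a symbol, a description or a position: 0 of the 9 matched. The family name and the place of the cluster were therefore not checked against an annotation, and no subtype of antenna protein is given to any member. No sequence is shown for the same reason.

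RNA was sequenced from leaves of the inbred maize line KN5585, which is used for transformation, in 3 control and 3 transgenic libraries. The control plants were the non-transgenic negative control of the transgenic strain, and the series title names ZmSUS1, a sucrose synthase gene, as the overexpressed gene. Every sample is labelled with a time point of 3 days after drought, while the series text gives 5 days of drought. The treatment label is normal for the control samples and transgenic for the others, so the labels leave unclear whether the control plants were under drought. If they were not, drought and transgene cannot be told apart in any difference below. The promoter of the transgene, the number of transformation events and the hour of sampling were not stated in the labels. The series text describes 3 biological replicates for each group, and no label says whether they came from separate plants.

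Light-harvesting chlorophyll a/b-binding proteins are encoded in the nucleus, imported into the chloroplast and inserted into the thylakoid membrane. There they bind chlorophylls and carotenoids and pass excitation energy to the reaction centres of photosystem I and photosystem II. The family is large in flowering plants, its transcripts are among the most abundant of green leaves, and their levels are known to respond to light, to the circadian clock and to the state of the chloroplast. In maize leaves photosystem II and its antenna are more abundant in mesophyll than in bundle sheath chloroplasts. The libraries are of whole leaf, so a change in the share of a cell type and a change in RNA per cell cannot be told apart.

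Values are FPKM (fragment numbers relative to gene length and to library size). They allow levels of different genes to be compared, but the number of fragments behind each value is unknown. Summed FPKM ranged from 684047 to 689548 in the control libraries and from 829541 to 831082 in the transgenic libraries. Across the 22944 genes that averaged 0.5 FPKM or more and were tested, the median difference in log2(FPKM + 1), transgenic minus control, was -0.56. Median-of-ratios scaling, which removes a shift shared by most genes, brought it to -0.02, and differences after this scaling are given as scaled differences. The other genes of the light reactions and the markers of mesophyll, bundle sheath, vascular and epidermal cells were listed by name or description. They could not be matched to identifiers, so the leaf label and the cell composition were not checked.

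All 9 genes were higher in the transgenic than in the control leaves. In each of them the lowest transgenic library stood above the highest control library, a pattern that 16.6% of all tested genes shared as deposited and 37.5% after scaling. Among the 152 genes averaging 500 FPKM or more, 8 of the 9 included, the log2 difference was above 0 in 122. It was above 0 in 5159 of all 22944 tested genes. The class was set on the mean over 6 libraries, so a high level in either group alone could place a gene in it. Zm00001d044399, Zm00001d044401, Zm00001d044402 and Zm00001d007267 entered it through their transgenic levels, with control means of 74.9, 43.9, 43.9 and 471.7 FPKM. The medians and ranks of this class given below share that limit. All 9 passed the filter on low values, Zm00001d044396 only through its transgenic level. In the fit across all genes, 16.3% of the tested genes were called higher (limma, Benjamini-Hochberg adjusted p below 0.05), or 36.3% after scaling, and 84% were called in either direction as deposited. The 9 genes are among those called higher, which is fixed by how they were chosen and is read as no result. The median log2 difference was 6.54 over the 4 cluster genes and 2.37 over the 5 dispersed genes, or 7.21 and 3.06 after scaling.

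**Figure D1:**
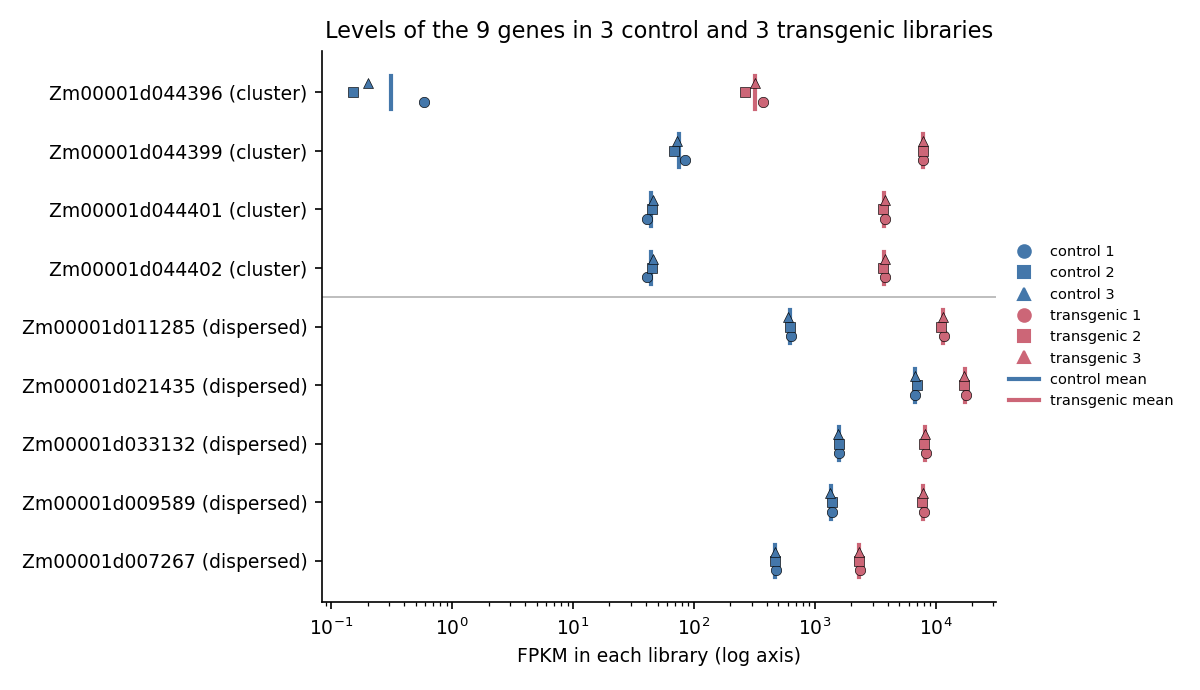
Level of each gene in every library in FPKM on a log axis. Points are single libraries, with the replicate number given by the shape, and vertical lines are group means of 3 libraries. Each gene has its 3 transgenic libraries to the right of its 3 control libraries, and the distance is widest in Zm00001d044396, whose control values lie between 0.15 and 0.59 FPKM.

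The cluster genes ranged from 0.31 to 74.9 FPKM in mean control level and from 318.4 to 7846 FPKM in mean transgenic level. Zm00001d044399, the most abundant of them, stood at 84.2, 68.8 and 71.8 FPKM in control libraries 1 to 3. Its transgenic values were 7855, 7894 and 7790 FPKM. It moved from between place 1240 and 1640 in the control libraries to place 12 or 13 in the transgenic libraries, when genes are ordered by level. The group means differed 104.7-fold, and the log2 difference was 6.70 ± 0.06 (SE of the limma fit, 3 libraries a group), or 7.38 ± 0.06 after scaling.

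Zm00001d044401 and Zm00001d044402 were listed with the same value in all 6 libraries, to both decimals. Control libraries 1 to 3 had 40.99, 44.54 and 46.08 FPKM, and transgenic libraries 1 to 3 had 3776, 3626 and 3784 FPKM. The group means differed 85.0-fold and the log2 difference was 6.38 ± 0.04 (SE), or 7.05 ± 0.04 after scaling. With equal values in every library the levels of these genes cannot be told apart, and the pair is treated here as 1 measurement rather than 2. Counted once, the cluster has 3 distinct profiles and a median log2 difference of 6.70.

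Zm00001d044396 was low in control leaves, at 0.59, 0.15 and 0.20 FPKM. Ordered by level, it stood between place 22628 and 26356 in the control libraries, where 29229 to 29376 genes were above 0. In the transgenic libraries it stood at 371.3, 265.7 and 318.3 FPKM, with libraries 1 and 2 at the ends of the range. It remained the lowest of the 9 genes in both groups. The control values may rest on few fragments, so no fold is given. Its log2 difference was 7.93 ± 0.15 (SE) with a pseudocount of 1 and 9.73 with a pseudocount of 0.1.

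These 4 genes had the 4 highest log2 differences of all 22944 tested genes, both as deposited and after scaling. The highest log2 difference of a tested gene outside the 9 was 5.61, below the 6.38 of the lowest cluster gene. This place in the table describes the choice of the genes, and the equal pair fills 2 of the 4 places with the same values.

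**Figure D2:**
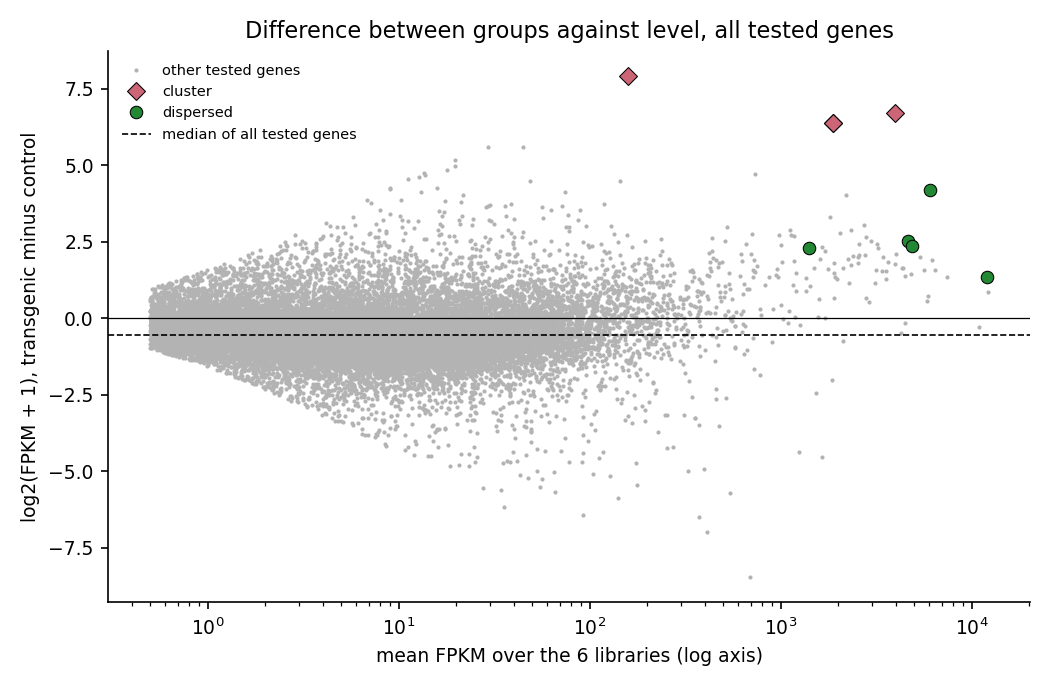
Difference in log2(FPKM + 1), transgenic minus control, against the mean FPKM over 6 libraries on a log axis, for 22944 tested genes (grey). The 4 cluster genes (diamonds, of which Zm00001d044401 and Zm00001d044402 coincide) lie above every other gene, and the 5 dispersed genes (circles) lie between 1.35 and 4.21. The dashed line is the median of all tested genes, -0.56.

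The identifiers numbered in between were low in both groups. Zm00001d044397, Zm00001d044398 and Zm00001d044400 lie by number inside the cluster, and each stayed at or below 3.20 FPKM in every library. Zm00001d044397 averaged 2.48 ± 0.64 FPKM in control leaves and 0.78 ± 0.19 FPKM in transgenic leaves (SD, n = 3 each). Zm00001d044400 averaged 0.82 ± 0.29 and 0.41 ± 0.12 FPKM (SD, n = 3 each). The remaining identifier, Zm00001d044398, was too low to be tested and had means of 0.72 FPKM (control) and 0.057 FPKM (transgenic). Of the 10 listed identifiers numbered just below and just above the cluster, 2 were at 0 in every library and 6 could be tested. Of these 6, 1 had a higher and 5 had a lower mean in transgenic leaves, with log2 differences from -1.18 to 0.66. Over all 22944 tested genes, 5159 had a log2 difference above 0. After scaling, 1 of the 5 lower ones lay above 0, at 0.07, and the highest of the 6 was 1.21. The highest mean among the 10 was 19.4 FPKM in control leaves and 8.05 FPKM in transgenic leaves. Identifier order was used here in place of positions, which the tables do not hold.

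**Figure D3:**
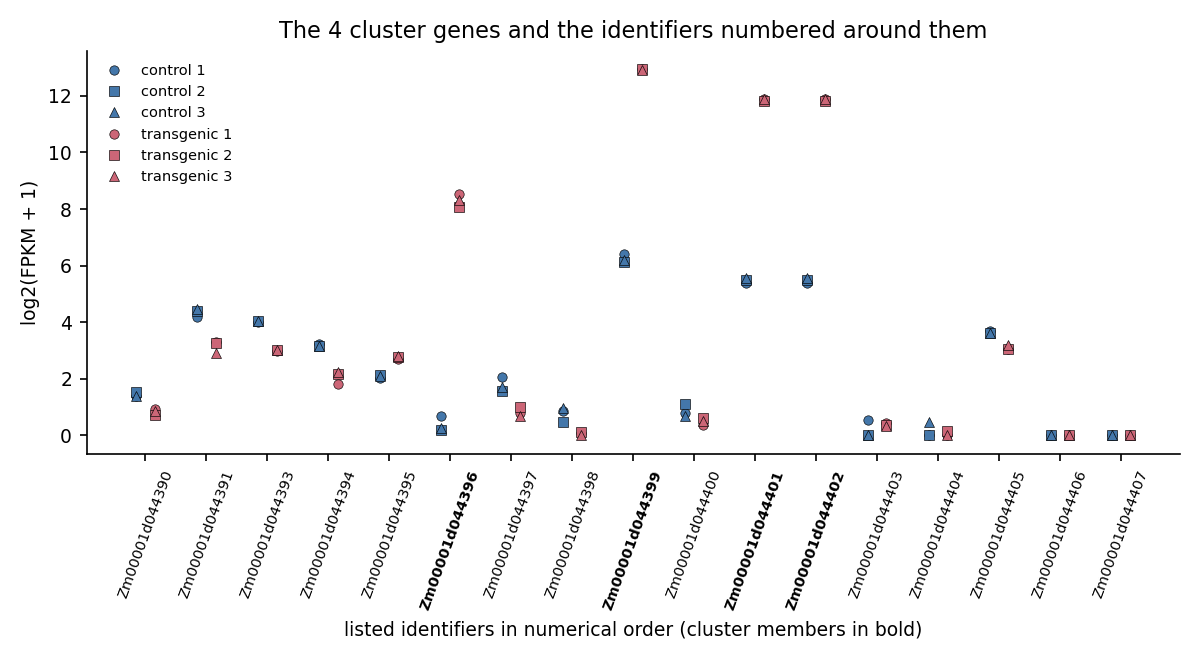
Level in log2(FPKM + 1) of the 4 cluster genes (bold) and of the listed identifiers numbered between and around them, 5 on each side. Points are single libraries of the control (blue) and transgenic (red) groups. The cluster genes lie between 8 and 13 in the transgenic libraries, while every other identifier stays below 5 in both groups.

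The dispersed genes were already abundant in control leaves and differed between the groups by smaller factors. Zm00001d021435 had the highest level of the 9 in every library. Its values were 6743, 6928 and 6694 FPKM in the control libraries, where it was the gene in place 3 each time. With 17629, 17101 and 17236 FPKM it was the most abundant gene of all 3 transgenic libraries. Its 2.55-fold difference was the smallest of the 9, with a log2 difference of 1.35 ± 0.02 (SE), or 2.04 after scaling. The median of the 152 genes averaging 500 FPKM or more, which include 8 of the 9, was also 1.35 as deposited and 2.04 after scaling. Zm00001d021435 ranked 77 among these 152 by log2 difference.

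Zm00001d011285 stood apart from the other dispersed genes. Control libraries held it at 631.9, 621.2 and 597.7 FPKM, and transgenic libraries at 11747, 11088 and 11454 FPKM. The 18.5-fold difference took it from places 101 to 106 in the control libraries to place 3 in each transgenic library. Its log2 difference of 4.21 ± 0.03 (SE), or 4.89 after scaling, lay between those of the other dispersed genes and those of the cluster.

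The other 3 dispersed genes differed by similar factors. Zm00001d033132 was at 1579, 1586 and 1542 FPKM in control libraries, against 8307, 7922 and 8175 FPKM in transgenic ones, a 5.19-fold difference. Zm00001d009589 was at 1384, 1378 and 1346 FPKM in control libraries, against 8056, 7678 and 7881 FPKM in transgenic ones, a 5.75-fold difference. Zm00001d007267 was at 475.1, 471.8 and 468.2 FPKM in control libraries, against 2341, 2305 and 2326 FPKM in transgenic ones, a 4.93-fold difference. Their log2 differences were 2.37 ± 0.02, 2.52 ± 0.02 and 2.30 ± 0.01 (SE), above the median of 1.35 for genes of at least 500 FPKM. By log2 difference they ranked 25, 19 and 29 among those 152 genes. After scaling they were 3.06, 3.21 and 2.98. All 6 values of Zm00001d033132 are also listed for Zm00001d033136, which is not among the 9, so these levels too cannot be told apart.

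The order of the 9 levels differed between the groups. In control leaves Zm00001d021435 was followed by Zm00001d033132, Zm00001d009589, Zm00001d011285, Zm00001d007267, Zm00001d044399, the equal pair and Zm00001d044396. Apart from the equal pair, no neighbours in that order overlapped. In transgenic leaves Zm00001d011285 was in place 2 among the 9, and Zm00001d044399 and the equal pair stood above Zm00001d007267. There the ranges of Zm00001d033132, Zm00001d009589 and Zm00001d044399 overlapped, at 7922 to 8307, 7678 to 8056 and 7790 to 7894 FPKM. Zm00001d033132 was nevertheless above Zm00001d009589 within each of the 3 libraries, by a ratio of 1.03 ± 0.003 (SD, n = 3), against 1.15 ± 0.005 in the control libraries.

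Levels of the 9 genes lay closer together in transgenic leaves. Among the dispersed genes the highest control mean was 14.4 times the lowest, and the highest transgenic mean 7.45 times the lowest. The ratio of Zm00001d021435 to Zm00001d011285 was 11.0 ± 0.3 in control and 1.52 ± 0.02 in transgenic leaves (SD, n = 3 each). The ratio of Zm00001d021435 to Zm00001d044399 was 91.3 ± 10.4 in control and 2.21 ± 0.04 in transgenic leaves (SD, n = 3 each). Such ratios within a library do not depend on the scaling of its total. Within the cluster, the ratio of Zm00001d044399 to the equal pair was 2.05, 1.54 and 1.56 in control libraries, against 2.08, 2.18 and 2.06 in transgenic ones. Control library 1 lay close to the lowest transgenic library in this ratio, well apart from control libraries 2 and 3.

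Together the 9 genes held 1.61%, 1.63% and 1.57% of summed FPKM in the control libraries and 7.69%, 7.41% and 7.55% in the transgenic libraries. Their summed level was 10978 ± 165 FPKM in control and 62706 ± 1176 FPKM in transgenic leaves (SD, n = 3 each), a 5.71-fold difference. The 4 cluster genes made up 1.48% of that sum in control and 24.9% in transgenic leaves. The increase of the 9 genes, 51728 FPKM, equals 35.8% of the 144493 FPKM by which the mean library totals differed. That difference is net of the genes that were lower in transgenic leaves, so 35.8% is no share of all increases. Without the 9 genes the totals were 674953 ± 3277 and 767717 ± 819 FPKM (SD, n = 3 each). With the equal pair counted once, the sums averaged 10934 FPKM in control and 58977 FPKM in transgenic leaves and differed 5.39-fold. Of these, the cluster made up 119.1 and 11894 FPKM. Those sums of all distinct members held 1.59% and 7.10% of library totals that still count both genes. Their increase then equalled 33.2% of the same 144493 FPKM, a total that still counts both genes of the pair. Among the 20 most abundant genes of each group, by mean level, there was 1 of the 9 in control and 5 in transgenic leaves.

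**Figure D4:**
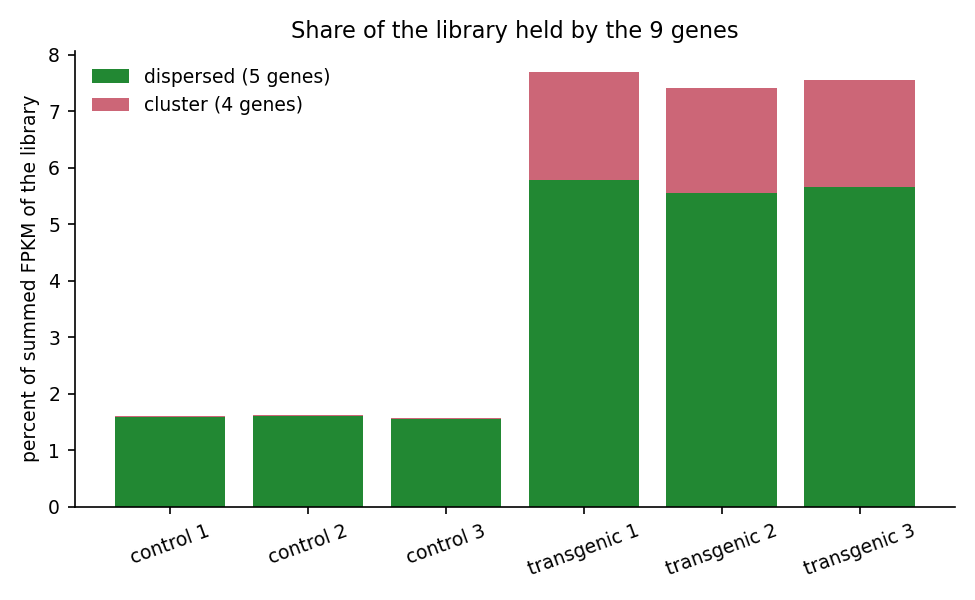
Share of the summed FPKM of each library held by the 5 dispersed genes (green) and the 4 cluster genes (red), in percent. The bars reach 1.57% to 1.63% in the control libraries and 7.41% to 7.69% in the transgenic libraries, and the cluster is visible only in the transgenic bars.

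Variation among the 3 libraries of each group was not used to choose the genes. For the dispersed genes the coefficient of variation ranged from 0.73% to 2.84% in the control and from 0.76% to 2.89% in the transgenic group. The median over the 152 genes of at least 500 FPKM was 1.63% and 1.18%. Zm00001d044399 varied by 10.9% in the control and by 0.67% in the transgenic group, and the equal pair by 5.95% and 2.39%. Their control means were 74.9 and 43.9 FPKM, below that class of 500 FPKM or more. Control medians were 2.43% for genes averaging 50 to 500 FPKM over the 6 libraries and 4.56% for those averaging 5 to 50 FPKM. Zm00001d044396 varied most in both groups, by 76.9% and 16.6%.

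Transgenic library 2 was the lowest of its group for 8 of the 9 genes, or 7 of 8 with the equal pair counted once, and the exception was Zm00001d044399. Of the genes of at least 500 FPKM, 45.4% also had their lowest transgenic value in that library, and 31.1% of all tested genes did. As percent of the group mean, the 5 dispersed genes deviated by -2.99% to -0.80% there, and by 0.72% to 2.77% in transgenic library 1. In control library 3 the dispersed genes deviated by -3.12% to -0.75%, while the equal pair deviated by 5.04%. The smallest difference between the groups, that of Zm00001d021435, was 2.55-fold. Because the genes were chosen on their difference between the groups, its size beside the spread within groups supports no test.

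**Figure D5:**
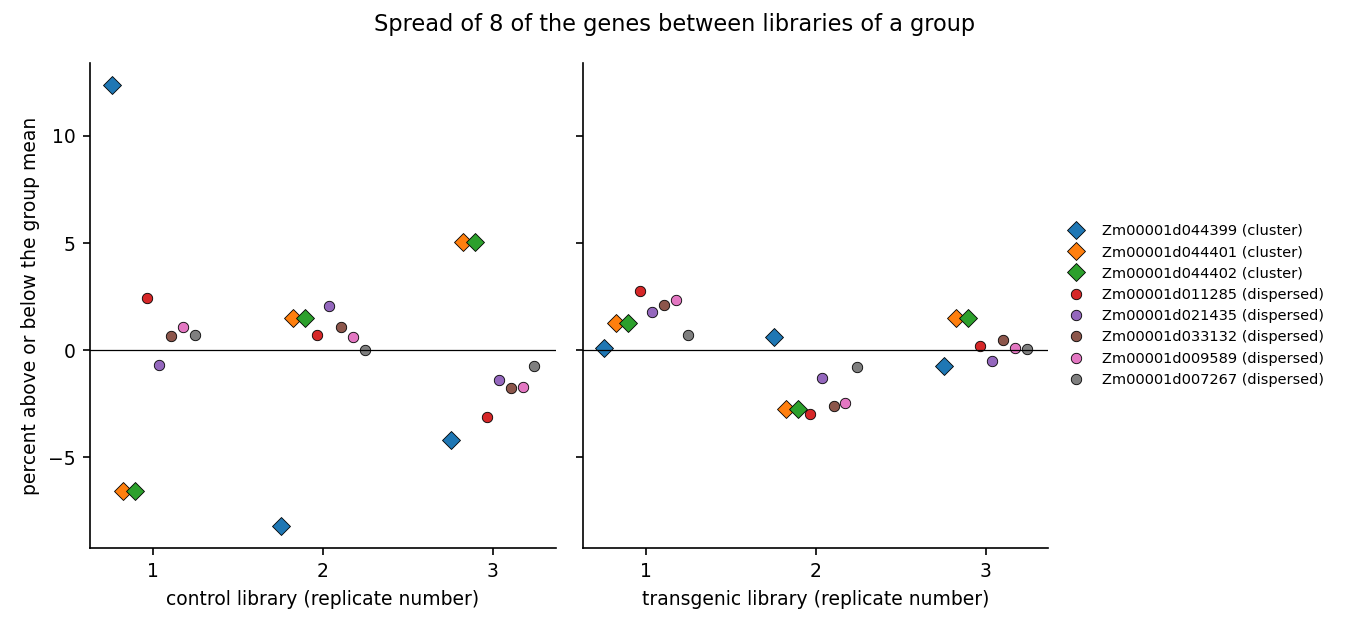
Deviation of 8 genes from their group mean, in percent, in each control and transgenic library. Zm00001d044396, with a coefficient of variation of 76.9% in the control group, is left out. Diamonds are cluster genes and circles dispersed genes, and the dispersed genes lie together below 0 in control library 3 and in transgenic library 2.

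The genes closest in level to Zm00001d021435 over the 6 libraries, measured by the Euclidean distance of log2(FPKM + 1), were Zm00001d038163 at a distance of 0.64 and Zm00001d039040 at 1.71. Zm00001d038163 averaged 8590 ± 10 FPKM in control leaves and 15702 ± 153 FPKM in transgenic leaves (SD, n = 3 each). Zm00001d039040 averaged 4161 ± 30 and 10723 ± 92 FPKM (SD, n = 3 each). Neither identifier could be named.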

How the data were processed

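The authors computed FPKM for 44351 genes and deposited them to 2 decimals, in a separate file for each library, per the file headers. Among tools and builds, only DESeq2 and mm10, a mouse build, appear in the submitters' processing notes, with no role or version, although the identifiers are of maize. For the aligner, the counting program, the maize build, strandedness and reads that match several genes, nothing is given in the sources used here. Per the labels' protocols, a SMARTER mRNA-Seq kit was used for the libraries.

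From these values log2(FPKM + 1) was fitted with limma 3.58.1 in R 4.3.3 for the 22944 genes averaging 0.5 FPKM or more. Group was the only term, moderation used an intensity trend, and two-sided p-values were adjusted by Benjamini-Hochberg over all genes. The fit was tested on simulated data. SEs come from it, and fold values are ratios of mean FPKM. These p-values reflect the spread between the 6 libraries, which may be technical. The members and lists were chosen with earlier results of these data known. All 9 members are named, with the identifiers inside the cluster and the 2 nearest profiles of the most abundant member. The planned list of other light-reaction genes and the leaf markers had no member that could be matched (0 of 44146 Zm00001d identifiers). Summaries used Python 3.11.15 with pandas 2.3.3, and plots matplotlib 3.10.9.

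Depth in reads is unknown. Ratios of values from 0.3 to 1.2 FPKM were fullest at 1.00 in all 6 pairs of libraries within groups and at 1.03, control over transgenic, in all 9 pairs between groups. The number of fragments behind a value was not derived.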

Additional observations from a re-analysis of the deposited data

How the results depend on the processing

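Every one of the 9 genes was higher in transgenic leaves under all 15 alternatives, a direction on which the genes were chosen. Of these alternatives, the 2 filters, the trend and the replicate block cannot change a member's difference by construction. The other pseudocount and the omission of 1 library cannot change its sign, because the groups did not overlap in any member. The median log2 difference of the cluster, 6.54, was 7.21 with median-of-ratios scaling, 6.26 with the same total FPKM and 5.94 with quantile normalisation. That of the dispersed genes, 2.37, was 3.06, 2.10 and 0.98, and the gap between both medians, 4.16, was 4.96 with quantile normalisation. The log2 ratio of summed FPKM was 2.51 for all 9 genes, 6.58 for the cluster and 2.12 for the dispersed genes. It was 3.20, 7.27 and 2.81 with median-of-ratios scaling, 2.24, 6.31 and 1.85 with the same total FPKM, and 1.50, 6.01 and 1.18 with quantile normalisation. Quantile normalisation gives the highest genes of each library the same values by construction. Of settings chosen after seeing the data, the same total FPKM of all other genes gave medians of 6.35 and 2.19 and ratios of 2.33, 6.40 and 1.94. The equal pair counted once gave a cluster median of 6.70, a gap of 4.32 and ratios of 2.43 for all and 6.64 for the cluster.

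Over all tested genes the median, -0.56, was -0.26 without a filter, -0.69 with a pseudocount of 0.1, -0.61 at a 2 FPKM minimum, -0.015 with median-of-ratios scaling, -0.78 with the same total FPKM, -0.044 with quantile normalisation and -0.71 with the same total of other genes. Higher calls numbered 3749, and 8333 and 7758 with median-of-ratios and quantile scaling, lower calls 15529, and 8464 and 8899. Leaving out 1 library moved the cluster median between 6.51 and 6.56, the dispersed median between 2.36 and 2.39, their gap between 4.13 and 4.18, and the ratios between 2.50 and 2.53, 6.56 and 6.60, and 2.11 and 2.14. The all-gene median then lay between -0.56 and -0.55. With the replicate number as a block 19187 genes were called, against 19278 without, and the members' differences were the same. Same-numbered libraries deviated together at correlations of 0.002, -0.05 and 0.002. For 0 of 3 control libraries was the same-numbered transgenic library the closest. These values show no pairing by number, and whether same-numbered libraries were handled together was not tested. Where no construction is named, the cause was not tested. The number of fragments behind the low control values of Zm00001d044396 is unknown.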

Other observations

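Equal values in all 6 libraries were rare in the table. Of the 22944 tested genes, 106 shared all their values with another tested gene, in 43 sets, which is 0.46% of the genes. Of the 9 genes 3 did so, Zm00001d044401 with Zm00001d044402, and Zm00001d033132 with Zm00001d033136. The other 6 had values of their own. The cause of the equal values was not tested.

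Zm00001d044399 and the equal pair deviated in opposite directions in all 3 control libraries. As percent of the group mean, the former deviated by 12.4%, -8.19% and -4.18% in libraries 1 to 3, and the latter by -6.56%, 1.53% and 5.04%. In transgenic libraries 1 to 3 Zm00001d044399 deviated by 0.11%, 0.61% and -0.72% and the pair by 1.27%, -2.75% and 1.49%, so that both were above their mean in library 1 and opposite in the others. Deviations from a group mean must balance, so few patterns of sign can occur in 3 libraries. How often other pairs of genes deviate in opposite directions was not tested.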
